A study of Drosophila melanogaster with 4 samples.

Results

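The mRNAs described here are those of 9 enzymes of glycolysis and of lactate dehydrogenase in *Drosophila* ovaries. The members were given as gene symbols, *Pgi*, *Pfk*, *Ald1*, *Tpi*, *Gapdh1*, *Gapdh2*, *Pgk*, *Eno*, *PyK* and *Ldh*, as steps of a pathway and not by a threshold on these data. All 10 were found among the 17023 FlyBase identifiers of the count files, and all 10 passed the filter on low counts. Bulk mRNA-seq was performed on whole ovaries of 2 genotypes, with 2 libraries of each. In >*bam* RNAi ovaries, a *NosGAL4* driver with *UAS-Dicer2* directs RNAi to germline *bag of marbles* (*bam*). The paper takes this genotype as an enrichment for cystoblasts (CBs). In >*bam* RNAi; *aramis* RNAi ovaries, RNAi against *aramis*, a DEAD-box helicase gene listed as *ais*, is expressed from the same driver, so both genotypes carry the driver, *Dicer2* and *bam* RNAi. Females were dissected 1 to 3 days after eclosion. The driver acts in the germline, while the dissected ovaries also hold somatic cells.

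Glycolysis splits glucose into pyruvate and yields ATP and NADH on the way. The first enzymes spend ATP to phosphorylate and cleave the sugar, and the later enzymes, from glyceraldehyde 3-phosphate dehydrogenase to pyruvate kinase, recover ATP. Lactate dehydrogenase reduces pyruvate to lactate and so restores the NAD+ that glycolysis needs. In flies, muscle is rich in glycolytic enzymes, and the ovary is wrapped in muscle sheaths.

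Glycolysis mRNAs were higher in >*bam* RNAi; *aramis* RNAi than in >*bam* RNAi ovaries. All 10 log2 fold changes were positive in DESeq2 and in edgeR under TMM, RLE, upper-quartile and total-count scaling. Scaling on marker genes shifts every gene by construction. On germline markers, which fell, the median of all genes became 1.43 and all 10 members were positive. On muscle markers, which rose, that rise is taken off every gene and all 10 were negative. Under TMM scaling, 9 of the 10 members rose and 0 fell at an adjusted p under 0.05 in edgeR's quasi-likelihood test. In DESeq2, or at an unadjusted p under 0.05, 0 fell as well. Of the 9115 genes tested, 25.4% rose and 25.0% fell. Their log2 fold changes ran from 0.36 for *PyK* to 0.84 for *Ald1*, with a median of 0.59, beside a median of -0.02 over all genes tested. *Ldh* did not pass the test. No member changed over 4-fold, the fold threshold the paper sets, which 3.36% of the genes tested passed together with the p threshold.

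**Figure D1:**
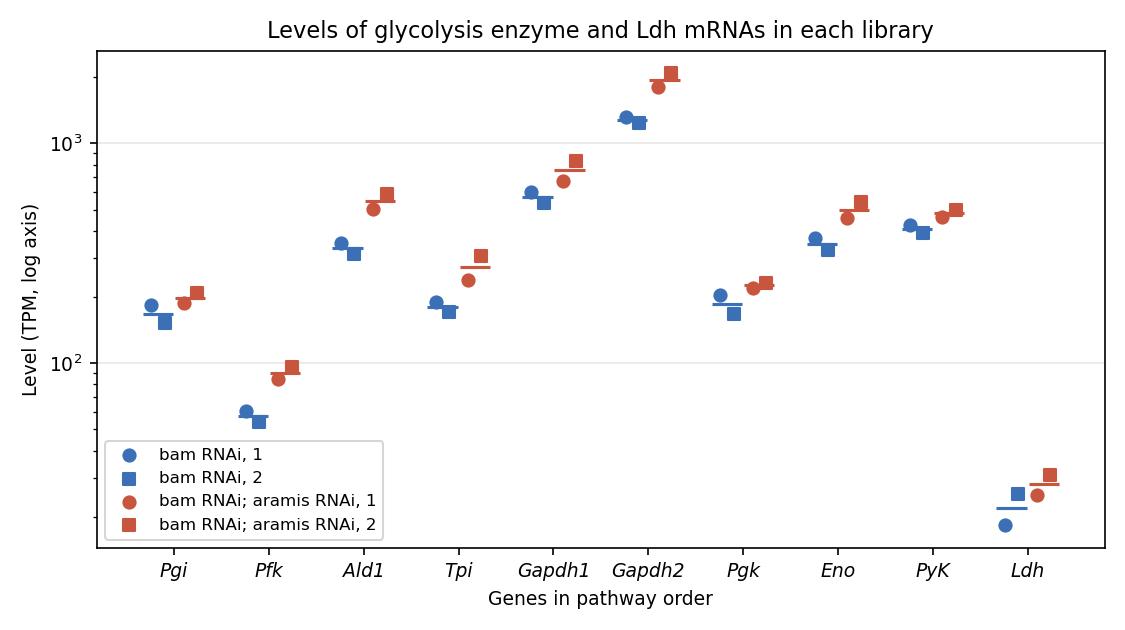
Level of each member in length-normalized transcript units (TPM, log axis) in the 4 libraries, in pathway order. Circles and squares are replicates 1 and 2, and bars are the means of each genotype. For 9 members both >*bam* RNAi; *aramis* RNAi libraries sit above both >*bam* RNAi libraries on this scale, and *Ldh* overlaps.

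Total counts were between 11882367 and 13348602 per library. In the targeted genes, counts of *ais* were 454 and 507 without *aramis* RNAi against 149 and 161 with it, and those of *bam* were 35 and 25 against 16 and 17. Of 15 germline markers 13 fell (median log2 fold change -1.54), and of 15 somatic ovary markers 8 rose and 2 fell (median 0.53). The >*bam* RNAi libraries stood apart from each other in eggshell mRNAs, with a summed level of 19590 TPM in replicate 1 and 67690 TPM in replicate 2, against 2118 to 6039 TPM in >*bam* RNAi; *aramis* RNAi. In whole ovaries, fewer cells of a type and less RNA per cell cannot be told apart.

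Levels differed widely between members. TPM divides counts by gene length, here the union of exons, and by the library's sum, and so allows genes to be compared. In >*bam* RNAi ovaries *Gapdh2* was the most abundant, at 1280 ± 59.0 TPM (SD, n = 2), and *Ldh* the least, at 21.9 ± 5.07 TPM (SD, n = 2), a span of 58.5-fold. *Gapdh1*, *PyK*, *Eno* and *Ald1* followed *Gapdh2*, then *Pgk*, *Tpi*, *Pgi* and *Pfk*. In this order, *Eno* and *Ald1* overlapped between libraries, as did *Pgk* and *Tpi*, and *Tpi* and *Pgi*. The other neighbours did not overlap. The 9 glycolysis enzymes lay between percentile 80.6 and 99.3 of all genes by TPM, and *Ldh* at 64.9. With *aramis* RNAi added, *Gapdh2* and *Gapdh1* stayed at the top and *Pfk* and *Ldh* at the bottom, while *PyK* moved from rank 3 to rank 5, with overlap between *Ald1* and *Eno* and between *Eno* and *PyK*. The order of these middle genes depends on the gene length used: with the longest transcript, *Ald1* was at 458 TPM and *Eno* at 462 TPM in >*bam* RNAi, above *PyK* at 413 TPM.

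In the preparatory steps, *Pgi* and *Pfk* act in turn on the phosphorylated sugar. *Pgi*, phosphoglucose isomerase (FBgn0003074, chromosome arm 2R, 8910900 to 8914069 in BDGP6, which has dm6 coordinates), had 183 and 153 TPM in >*bam* RNAi and 188 and 208 TPM with *aramis* RNAi. The groups did not overlap, but the gap between the nearest libraries was smaller than the spread within either genotype. Its log2 fold change was 0.37 (SE 0.111, edgeR adjusted p = 0.0308). *Pfk*, phosphofructokinase, which catalyses the committed step (FBgn0003071, 2R, 10109740 to 10117457), had 60.6 and 54.0 TPM in >*bam* RNAi and 84.3 and 96.2 TPM with *aramis* RNAi. Both libraries with *aramis* RNAi lay clear of the others, and the log2 fold change was 0.79 (SE 0.112, edgeR adjusted p = 0.00172). TPM not overlapping in the higher direction was seen in 30.0% of the tested genes with a length, and in 9 of the 10 members.

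Aldolase and triosephosphate isomerase then cleave the sugar and interconvert the products. *Ald1*, the aldolase gene (FBgn0000064, 3R, 26254069 to 26261591), had the largest rise of the 10 members under TMM scaling. Its level was 353 and 315 TPM in >*bam* RNAi and 504 and 587 TPM with *aramis* RNAi, a log2 fold change of 0.84 (SE 0.130, edgeR adjusted p = 0.00235). *Tpi* (FBgn0086355, 3R, 30132981 to 30134599) was at 189 and 172 TPM against 240 and 308 TPM. Its log2 fold change was 0.74 (SE 0.149, edgeR adjusted p = 0.00689), and replicate 2 with *aramis* RNAi was the highest library for this gene, as for all 10 members.

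Glyceraldehyde 3-phosphate dehydrogenase, the NADH-producing step, is encoded by a pair of paralogs. *Gapdh2* (FBgn0001092, X, 15868145 to 15869661) had 1322 and 1238 TPM in >*bam* RNAi and 1808 and 2083 TPM with *aramis* RNAi, a log2 fold change of 0.73 (SE 0.129, edgeR adjusted p = 0.00401). *Gapdh1* (FBgn0001091, 2R, 7791901 to 7793380) had 600 and 536 TPM in >*bam* RNAi and 674 and 833 TPM with *aramis* RNAi, a log2 fold change of 0.54 (SE 0.140, edgeR adjusted p = 0.0182). *Gapdh1* took 31.8% and 30.7% of the counts of the pair in >*bam* RNAi (exact 95% intervals 31.0 to 32.5 and 30.0 to 31.5) and 27.7% and 29.1% with *aramis* RNAi (27.0 to 28.3 and 28.5 to 29.7). The groups did not overlap, and an exact two-sided permutation test gave p = 0.33, the smallest that 2 libraries against 2 allow. These intervals cover counting error only. The genes are close copies, and how reads that match both were counted is not given in the sources used here, so the split between them is uncertain.

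Phosphoglycerate kinase, enolase and pyruvate kinase complete the pathway. *Pgk*, the first ATP-producing enzyme (FBgn0250906, 2L, 2746880 to 2753068), had 204 and 167 TPM in >*bam* RNAi and 221 and 232 TPM with *aramis* RNAi, and its log2 fold change was 0.42 (SE 0.103, edgeR adjusted p = 0.0149). *Eno* (FBgn0000579, 2L, 1724768 to 1729636) had 372 and 326 TPM against 455 and 544 TPM, with a log2 fold change of 0.65 (SE 0.138, edgeR adjusted p = 0.00823). *PyK*, which makes pyruvate and ATP (FBgn0267385, 3R, 22367536 to 22372746), had 426 and 392 TPM against 462 and 500 TPM. Its log2 fold change of 0.36 (SE 0.0992, edgeR adjusted p = 0.0221) was the smallest of the members. Exons of *Ald1*, *Pgk* and *Eno* overlap genes on the other strand, over at most 9.74% of their length. The strand setting of the counting is not given in the sources used here. The overlapping genes had far fewer counts at *Eno* and *Ald1*, at most 142 in a library for *Rrp40* and 9 for the antisense RNA. At *Pgk*, *Cwc25* had 407 and 490 counts without *aramis* RNAi and 259 and 276 with it. Those of *Pgk* were 2171 and 2062 without it and 2217 and 2523 with it. The other 7 members overlap no annotated exon.

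*Ldh* (FBgn0001258, 3L, 6259105 to 6262694) had the lowest level of the 10 members and uneven replicates. Its counts were 179 and 289 without *aramis* RNAi against 232 and 309 with it, or 18.3 and 25.4 TPM against 25.1 and 30.9 TPM. The groups overlapped. Its log2 fold change was 0.48 with a 95% interval from -0.05 to 1.005 (edgeR adjusted p = 0.113), so an unchanged level and a rise of the size of *Ald1* both lie within the interval. With the replicate number as a block, the value was 0.49 (edgeR adjusted p = 0.0244). *PyK* mRNA exceeded *Ldh* mRNA 23.3-fold and 15.4-fold in the >*bam* RNAi libraries and 18.4-fold and 16.2-fold with *aramis* RNAi, per length, so the ratio overlapped between the genotypes. *Gpdh1*, glycerol 3-phosphate dehydrogenase, which also restores NAD+, had 2.44 to 4.55 times the level of *Ldh* over the 4 libraries.

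**Figure D2:**
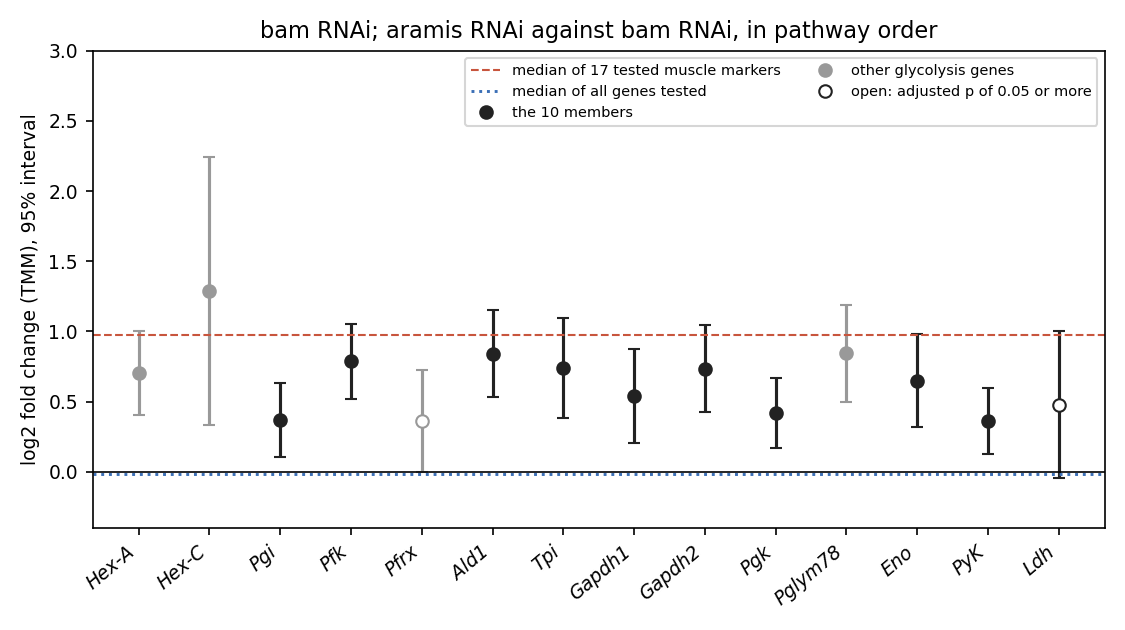
Log2 fold changes between the genotypes (*aramis* RNAi added, relative to >*bam* RNAi alone) under TMM scaling with 95% intervals, for the 10 members (black) and 4 other genes that act on glycolysis (grey), in pathway order. Open points did not pass the test. Members lie between 0.36 and 0.84, above the dotted median of all genes at -0.02 and below the dashed median of muscle markers at 0.97. Scaling on muscle markers takes about the mean of their log2 fold changes off every gene, which makes all 10 negative by construction.

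In these 4 libraries, the make-up of the glycolysis mRNA pool differed between the genotypes. The summed level of the members was 3727 and 3377 TPM in >*bam* RNAi and 4662 and 5422 TPM with *aramis* RNAi, a ratio of means of 1.42. Within this sum, *Gapdh2* held 35.5% and 36.7% without *aramis* RNAi, against 38.8% and 38.4% with it, and *Ald1* went from 9.46% and 9.32% to 10.8% in both libraries. In contrast, *PyK* went from 11.4% and 11.6% to 9.92% and 9.22%, and *Pgi* from 4.92% and 4.52% to 4.04% and 3.83%. The shares of *Gapdh2*, *Ald1*, *Pfk* and *Tpi* were higher and those of *PyK*, *Pgi*, *Pgk* and *Gapdh1* lower in both >*bam* RNAi; *aramis* RNAi libraries, without overlap, while *Eno* and *Ldh* overlapped. Shares within a library do not depend on how libraries are scaled. They were not tested, as 2 libraries against 2 cannot pass 0.05 in an exact permutation test. For *Tpi* the gap was small, with 5.07% and 5.08% against 5.15% and 5.69%. How often other genes separate on a like measure was not counted, so the separation cannot be read as a trait of the members. Per length, *Ald1* was at 0.827 and 0.803 of the level of *PyK* in >*bam* RNAi and at 1.09 and 1.17 of it with *aramis* RNAi. Likewise, *Pfk* was at 0.331 and 0.353 of *Pgi* in >*bam* RNAi and at 0.447 and 0.463 of it with *aramis* RNAi.

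**Figure D3:**
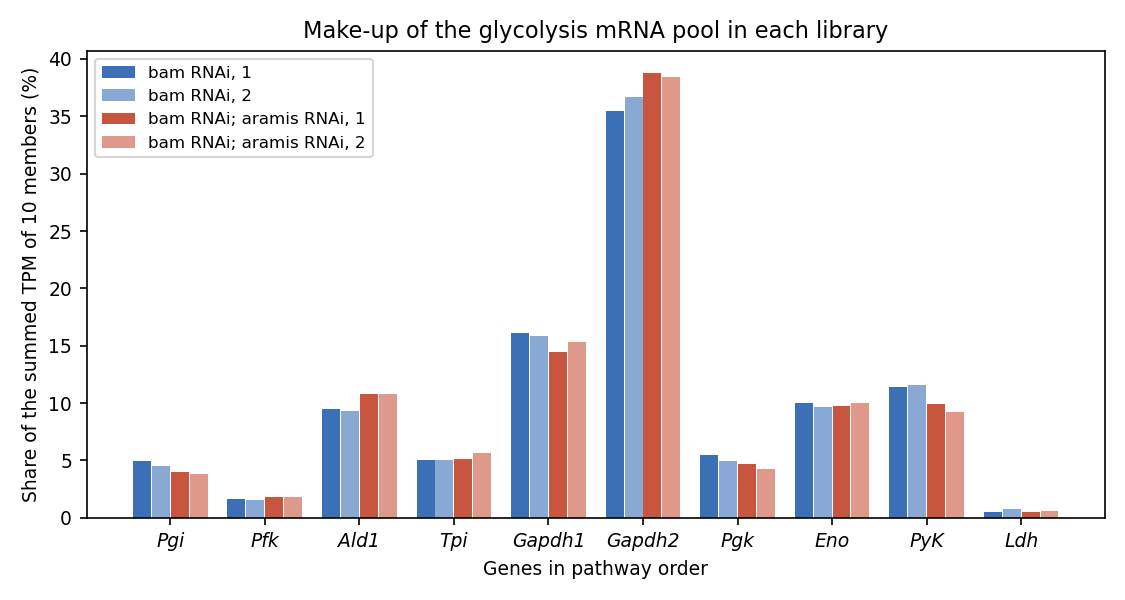
Share (%) of each member in the summed TPM of the 10 members, per library (blue, >*bam* RNAi; red, >*bam* RNAi; *aramis* RNAi; darker bars are replicate 1). *Gapdh2* and *Ald1* held larger shares and *PyK* and *Pgi* smaller shares in both libraries with *aramis* RNAi.

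Muscle mRNAs moved with the members. Of 20 listed muscle markers 19 were matched and 17 tested, and 15 of these rose, with a median log2 fold change of 0.97, from 0.36 for *Act88F*, which did not pass the test, to 1.13 for *TpnC73F*, a troponin C gene. Their summed level was between 20490 and 24740 TPM in >*bam* RNAi and between 34490 and 45360 TPM with *aramis* RNAi, and none of the matched markers was at 0 in all libraries. All 10 members lay below the median of the muscle markers. For every 100 TPM of summed muscle markers, the members summed to 15.1 and 16.5 TPM in >*bam* RNAi and to 13.5 and 12.0 TPM with *aramis* RNAi. A large part of the summed markers was *Act57B* alone, at 12030 and 9657 TPM in >*bam* RNAi and 15850 and 21050 TPM with *aramis* RNAi. On this ratio 9 members were lower without overlap, and *Ald1*, at 1.42 and 1.54 against 1.46 and 1.29 TPM, overlapped. As the summed markers rose 1.765-fold, any gene that rose less has a lower mean relative to them. The share of all genes lower on this ratio was not counted, so the 9 cannot be read as a trait of the members. Scaling libraries to equal muscle markers takes about the same amount off every gene, near the mean of the markers' log2 fold changes. All 10 log2 fold changes lay below that amount under TMM scaling and were thus negative in this fit, from -0.57 for *PyK* to -0.10 for *Ald1*. In this fit 0 members passed the edgeR test in either direction (at an unadjusted p under 0.05, 0 were higher and 2 lower). Of the 9115 genes tested, 1.26% were called higher and 5729 genes lower. That scaling moved the median of all genes by -0.92. The part of muscle tissue in the rise was not tested.

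The calls also rested on scaling and on single libraries. With total-count scaling, which moved the median of all genes by -0.19, 6 of 10 members rose, and *Pgi*, *Pgk* and *PyK* no longer passed, at 0.17, 0.22 and 0.17. That scaling called 1684 genes higher and 3346 lower over all genes, against 2312 and 2278 under TMM. Without replicate 2 of >*bam* RNAi; *aramis* RNAi, 6 members rose, and *Pgi*, *Pgk* and *PyK* did not pass, at 0.24, 0.33 and 0.25, beside 20.9% of all genes tested called higher. Without replicate 1 or replicate 2 of >*bam* RNAi, no member kept its call, and calls over all genes dropped as well. All 10 members stayed positive, between 0.23 and 0.88 and between 0.27 and 0.79. The lone library of a genotype is taken in these fits to vary like the others.

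Genes at the remaining steps of glycolysis were measured as well. *Hex-A*, a hexokinase that starts the pathway, rose with a log2 fold change of 0.70 (SE 0.125, edgeR adjusted p = 0.00406), from 202 and 194 TPM to 270 and 319 TPM. *Pglym78*, phosphoglycerate mutase, rose by 0.84 (SE 0.145, edgeR adjusted p = 0.00358), from 288 and 213 TPM to 384 and 435 TPM. *Hex-C*, another hexokinase, was far lower, with 52 and 38 counts against 124 and 61 counts, and rose by 1.29 (SE 0.399, edgeR adjusted p = 0.0341). *Pfrx*, whose enzyme sets the level of a *Pfk* activator, was at 0.36 and did not pass (edgeR adjusted p = 0.0881). *CG9961*, a paralog of *Pgk*, fell by 1.62 on the log2 scale, from 98 and 109 counts to 32 and 24 counts. The pyruvate kinase paralogs *CG7069*, *CG11249* and *CG12229* did not pass the test, at -0.06, 0.86 and 0.13, with at most 28 counts in a library, and *CG7362* had 7 and 8 counts against 1 and 1 and was not tested. *Hex-t1*, *Hex-t2*, *Pglym87* and *Ald2* had 0 counts in all 4 libraries. Over this list of 14 genes, 3 of the 8 tested rose and 1 fell, beside 25.4% and 25.0% of all genes tested.

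Genes of sugar supply and storage rose in most cases, 8 of 9 tested, with 0 lower and a median of 0.70. Of all genes tested, 25.4% rose and 25.0% fell. This list of sugar supply genes also holds genes that make glycogen or trehalose, so its rises do not stand for sugar supply to glycolysis alone. Among them, *Glyp*, glycogen phosphorylase, had a log2 fold change of 1.11 (SE 0.0920, edgeR adjusted p = 3.4e-04), from 189 and 156 TPM to 356 and 324 TPM. *Tps1*, trehalose 6-phosphate synthase, was at 1.45 (SE 0.425, edgeR adjusted p = 0.0281) and uneven between replicates, with 37.8 and 18.3 TPM against 99.6 and 41.5 TPM. In the pentose phosphate pathway, which branches from glucose 6-phosphate, 3 of 7 genes rose and 2 fell, where 25.4% and 25.0% of all genes tested did. The transketolase gene *CG8036* rose by 0.95 and *Zw*, glucose 6-phosphate dehydrogenase, by 0.87, while *Rpe* fell by 0.53 and *Taldo* fell by 0.23.

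Further lists covered pyruvate entry, the TCA cycle, the glycerol 3-phosphate shuttle and gluconeogenesis. Of 6 pyruvate entry genes 2 rose, *Pdk*, the kinase that inhibits pyruvate dehydrogenase, at 0.51 and *Mpc1*, a mitochondrial pyruvate carrier, at 0.46. Of 15 TCA cycle genes 5 rose and 1 fell, with a median of 0.25, from *Ogdh* at 0.45 to *ScsbetaG* at -0.29. On both lists 33.3% rose, near the 25.4% of all genes tested. In the glycerol 3-phosphate shuttle 2 of 3 tested genes rose, *Gpdh1* at 0.51 and *Gpo1* at 0.40. Of 4 tested gluconeogenesis genes, which run the pathway in reverse, *fbp* rose by 0.97 and *PCB* by 0.64. *Pepck2*, phosphoenolpyruvate carboxykinase, fell by 3.70 on the log2 scale (SE 0.237, edgeR adjusted p = 2.5e-04), from 378 and 450 counts to 19 and 34 counts.

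Among 8 genes that regulate glycolysis, 3 rose and 2 fell, beside 25.4% of all genes tested that rose and 25.0% that fell. *sima*, the HIF alpha subunit, rose by 0.76, *Hph*, the prolyl hydroxylase that targets it, by 0.53, and *tgo*, its partner, by 0.35. *Mondo*, a sugar sensor, fell by 0.89, from 200 and 215 TPM to 118 and 88.6 TPM, and *Myc* fell by 0.28. *ERR*, which drives glycolytic genes in fly larvae, was at 0.06 (edgeR adjusted p = 0.705), with 24.6 and 24.2 TPM against 24.7 and 22.0 TPM. The directions given for these pathway lists are those under TMM scaling. Scaling on muscle markers, which by construction lowers every gene, called 0 genes of these lists higher and 28 lower, beside 5729 lower over all genes.

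Markers of other tissues at the ovary also moved. Of 8 tested haemocyte markers 5 rose (median 1.24), with summed levels of 3305 to 4564 TPM in >*bam* RNAi and 5792 to 5829 TPM with *aramis* RNAi. Most of these sums came from *Ppn*, *vkg* and *Col4a1*, with means of 930, 1051 and 1598 TPM in >*bam* RNAi. Of these, *vkg* and *Col4a1* did not pass the test, so the sums say little about the other haemocyte markers. Of 8 tested fat body markers 4 rose (median 1.39), with summed levels of 149 to 168 TPM and 637 to 743 TPM, led by *Lsp1beta* at 2.83. None of the matched markers of either list was at 0 in all libraries. The germline markers summed to 1514 to 1549 TPM in >*bam* RNAi and to 602 to 721 TPM with *aramis* RNAi, from *rhi* at -2.59 to *tud* at 0.47. Their part in the levels of the members was not tested.

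**Figure D4:**
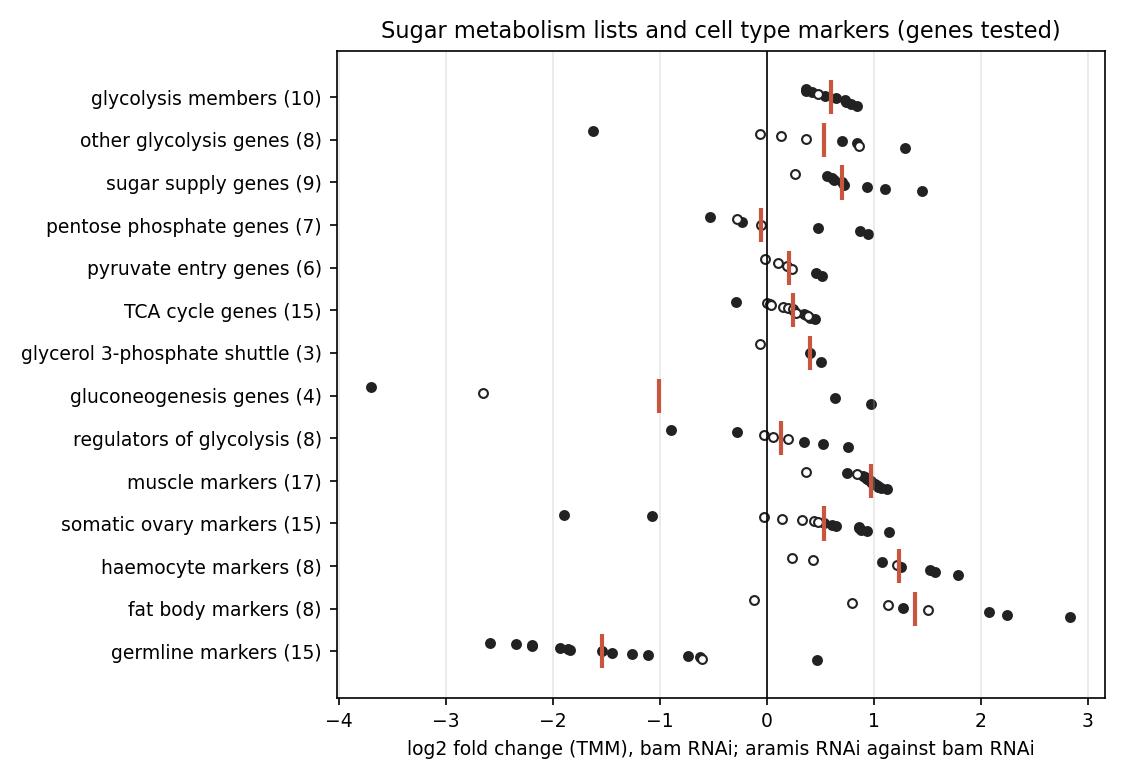
Log2 fold changes under TMM scaling for each tested gene of the pathway and marker lists, with the number tested in brackets. Filled points passed the edgeR test, open points did not, and red bars are list medians. The medians shown include 0.59 for members, 0.70 for sugar supply genes, 0.25 for TCA cycle genes and 0.97 for muscle markers.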

How the data were processed

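Ovary mRNA-seq libraries, 4 in all, were grouped by the genotype in their labels. Values deposited by the authors are raw read counts, as whole numbers, for each gene. The submitters' processing notes name HISAT2 2.1.0, featureCounts 1.4.6, DESeq2 1.24.0 and dm6. The strand setting, the annotation release and how multiply mapped reads were handled are not given in the sources used here. Total counts ran from 11882367 to 13348602, where 3 counts correspond to 0.225 to 0.252 CPM.

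Symbols, positions and exon lengths came from Ensembl release 115 (BDGP6), which matched 16647 of 17023 identifiers. The other 376 carried 6.14% to 6.32% of counts, entered the tests and were left out of TPM. No sequences were used here.

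All genes were tested with edgeR 4.0.16 in R 4.3.3 (TMM, default filter with minimum count 10, quasi-likelihood test without a block, Benjamini-Hochberg adjustment over 9115 genes). Standard errors are those implied by the F statistic. The functions were tested on simulated data. Labels do not state whether replicates came from separate flies, so p-values measure the spread between these libraries. Counts of replicates differed beyond sampling noise (chi-square divided by degrees of freedom, 27.2 and 15.4), so none was a library listed again.

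Members and lists were chosen with earlier results of these data known. Named genes are all members, glycolysis-step genes with at least 10 counts, and up to 2 largest called rises and falls of each pathway list. From the marker lists, the extremes of muscle and germline and the highest fat body gene are named. Further genes (*tgo*, *ERR*, *Cwc25*, *Rrp40*, *Act57B*, *Ppn*, *vkg*, *Col4a1* and genes with 0 counts) were named after their values were seen. Alternatives were DESeq2 1.42.0, RLE and upper-quartile scaling, no low-count filter, a replicate block, leaving out the 20 most abundant genes or each library, the longest transcript as length and, chosen after seeing the data, scaling on total counts, muscle or germline markers.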

Additional observations from a re-analysis of the deposited data

How the results depend on the processing

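Of the 10 members, 9 rose under DESeq2, RLE scaling, no filter on low counts and without the 20 most abundant genes. In the same order, 15.8%, 26.3%, 16.5% and 25.6% of all genes tested were called higher. With upper-quartile scaling 8 members rose, beside 23.1% of all genes tested, and *Pgi* was at 0.31 (edgeR adjusted p = 0.0551). Scaling on germline markers, which moved the median of all genes by 1.45, called all 10 members higher, beside 88.6% of all genes tested. Scaling on muscle markers called 0 and reversed every member, to -0.56 for *Pgi*, -0.15 for *Pfk*, -0.10 for *Ald1*, -0.21 for *Tpi*, -0.40 for *Gapdh1*, -0.21 for *Gapdh2*, -0.51 for *Pgk*, -0.29 for *Eno*, -0.57 for *PyK* and -0.49 for *Ldh*. By construction it subtracts the rise of those markers from every gene. No member fell past the threshold under any of these settings.

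Of the other pathway genes, 28 rose and 7 fell. Under muscle scaling 0 rose and 28 fell, under germline scaling 56 rose and 1 fell, and 4 fell under DESeq2 and with no filter on low counts. Over all genes, 2312 rose, 2278 fell and 306 passed both thresholds. These numbers were 115, 5729 and 678 under muscle scaling and 8076, 138 and 2105 under germline scaling.

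With each library left out in turn, the members called higher ran from 0 to 9, other pathway genes called higher from 6 to 34 and lower from 1 to 7, and all genes called higher from 685 to 1991, lower from 558 to 1724 and over 4-fold from 108 to 297. The cause was not tested. The summed TPM of the members on the longest transcripts, and the *Gapdh1* share taken on TPM, moved by no more than the SD of the replicates. With 1 of 2 libraries left out, a mean always moves by less than that SD, so this setting cannot show that these values are stable.

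With the replicate block, 10 members rose, as *Ldh* passed at 0.49, beside 24.8% of all genes tested. In all, 4430 genes were called with the block against 4590 without it. No other member's call changed. Deviations of same-numbered libraries correlated at 0.03, so the numbers are not shown to pair the samples. *Ldh* had the fewest counts of the members, 179 to 309 in a library, and its SE was 0.220 without the block and 0.132 with it.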
